A study of Mus musculus with 12 samples.

Results

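Connexins are the subunits of gap junction channels, and 9 connexin genes with roles in the glia, connective tissue, vessels and neurons of sensory ganglia were followed through a mouse dorsal root ganglion (DRG) RNA-seq series. They were taken by name from the deposited expression table, where all 9 of 9 were found among 24490 listed genes: Gja1, Gja4, Gja5, Gjb1, Gjb2, Gjb6, Gjc1, Gjc3 and Gjd2. The table also lists 11 other connexin genes and the 3 pannexins, which form membrane channels of related architecture from an unrelated sequence family.

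Connexins assemble into a hemichannel, and hemichannels of neighbouring cells dock to let ions and small metabolites move between their cytoplasms. In sensory ganglia, gap junctions couple the satellite glial cells that wrap each neuronal cell body, and this coupling is known to increase after nerve injury or inflammation. In myelinating Schwann cells Cx32, encoded by Gjb1, instead joins layers of a cell's own myelin wrap, and mutations of human GJB1 cause X-linked Charcot-Marie-Tooth neuropathy.

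The series was made to define the transcripts of nociceptors, the neurons that detect damaging stimuli, and holds 12 samples in 3 groups of 4, all from adult male C57Bl/6 mice with ganglia pooled over all spinal levels and no treatment labelled. Intact samples were whole ganglia frozen at once, 1 mouse per sample. Unsorted samples were ganglia dissociated acutely with dispase, collagenase and DNase, 2 mice per sample. MACS-sorted samples were dissociated cells of 8 pooled mice per sample, incubated with biotinylated antibodies to non-neuronal cells and passed over a magnetic column that holds labelled cells back.

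RNA was selected for polyA tails and sequenced from stranded libraries, with RNA integrity numbers given as above 8. Levels are in FPKM, fragments per kilobase of transcript scaled to the mapped fragments of the library, so levels of different genes are compared per length. The table holds no counts. Depth was therefore estimated from the steps between low FPKM values, with an assumed fragment length of 150 bases, at 16300000 to 19400000 fragments in intact samples, 15700000 to 18600000 in unsorted samples and 13600000 to 17200000 in MACS-sorted samples.

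Some libraries stood apart from their replicates. Over 8263 genes the median absolute log2 difference of intact replicate 1 from the other intact samples was 0.29 to 0.32, against 0.08 to 0.09 among the others, and its parvalbumin (Pvalb) level was 441 FPKM, against 61.8 to 67.8 FPKM in them. Unsorted replicates 1 and 2 were the closest pair of the series, with a difference of 0.05, against 0.08 to 0.13 for the other unsorted pairs. The paper describes 4 biological replicates per condition. Whether unsorted replicates 1 and 2 are repeats of 1 library, which would leave 3 independent unsorted samples, was not settled by the files. They were kept as separate samples. MACS-sorted replicate 4 held more glial RNA than replicates 1 to 3: the summed FPKM of 8 Schwann cell markers was 1215, against 572, 520 and 595. It also held the most blood RNA: 5 red blood cell genes, led by Hbb-bs, summed to 1067, 1077, 5371 and 8816 FPKM in MACS-sorted replicates 1 to 4, against 42.6 to 206 FPKM in unsorted and 121 to 417 FPKM in intact samples. These sums leave out Hba-a2, which has repeated entries, with means of 2425 and 1520 FPKM in MACS-sorted and 85.3 and 51.9 FPKM in unsorted samples. MACS-sorted replicate 2 was the lowest of its group for 8 endothelial markers, at 16.5 FPKM against 66.0, 56.9 and 91.0 in replicates 1, 3 and 4.

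Marker lists describe what the groups held. The pan-neuronal list (7 genes, most abundant Uchl1) summed to 3474 to 3708 FPKM (intact), 4162 to 4494 FPKM (unsorted) and 3724 to 4783 FPKM (MACS-sorted), so neuronal RNA was abundant in every library. The satellite glia list (6 genes) summed to 1985, 1634, 1809 and 1843 FPKM in intact replicates 1 to 4, to 2654, 2648, 2295 and 2103 in unsorted replicates, and to 114, 89.1, 125 and 189 in MACS-sorted replicates. Apoe was its most abundant gene in the intact and unsorted samples and Glul, at 82.3 to 111 FPKM, in the MACS-sorted samples. The defining satellite glia channel Kcnj10 was at 0.0829, 0.0120, 0.174 and 0.206 FPKM in the MACS-sorted samples, near 0 but not at 0. The Schwann cell list (8 genes) summed to 4588, 3026, 3414 and 2595 FPKM in intact and to 2882, 2901, 2038 and 3303 in unsorted replicates. Its most abundant gene was Pmp22 in MACS-sorted replicates 1 to 3 and Mbp in replicate 4, and Mag was at 0 in MACS-sorted replicate 2.

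The summed FPKM of the 9 connexins was 43.2 ± 5.40 (SD, n = 4) in intact ganglia, 43.4 ± 6.03 in unsorted cells and 5.78 ± 4.02 in MACS-sorted cells. The MACS-sorted replicates held 5.52, 1.34, 5.16 and 11.1 FPKM, all under the lowest other sample, at 34.7 FPKM. The makeup of this pool also differed between groups. In intact ganglia Gjc3 gave 35.4% ± 1.71 of the sum, Gja1 25.3% ± 3.49 and Gjb1 16.1% ± 2.42, and Gjb6 and Gjb2 gave 8.40% ± 1.58 and 6.81% ± 1.12 (SD, n = 4). In unsorted cells Gjc3 and Gja1 stood nearly level at 37.5% ± 2.53 and 36.0% ± 2.96, and Gjb6 and Gjb2 gave 1.61% ± 1.31 and 2.55% ± 1.22. In MACS-sorted cells Gja1 gave 59.7% ± 7.93, followed by the vascular connexins Gjc1 and Gja4 at 12.1% ± 2.40 and 11.2% ± 3.44, while Gjc3 gave 7.75% ± 4.59 and Gjb1 4.69% ± 2.25. The MACS-sorted shares rest on low sums, and no test was made of the shares.

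**Figure D1:**
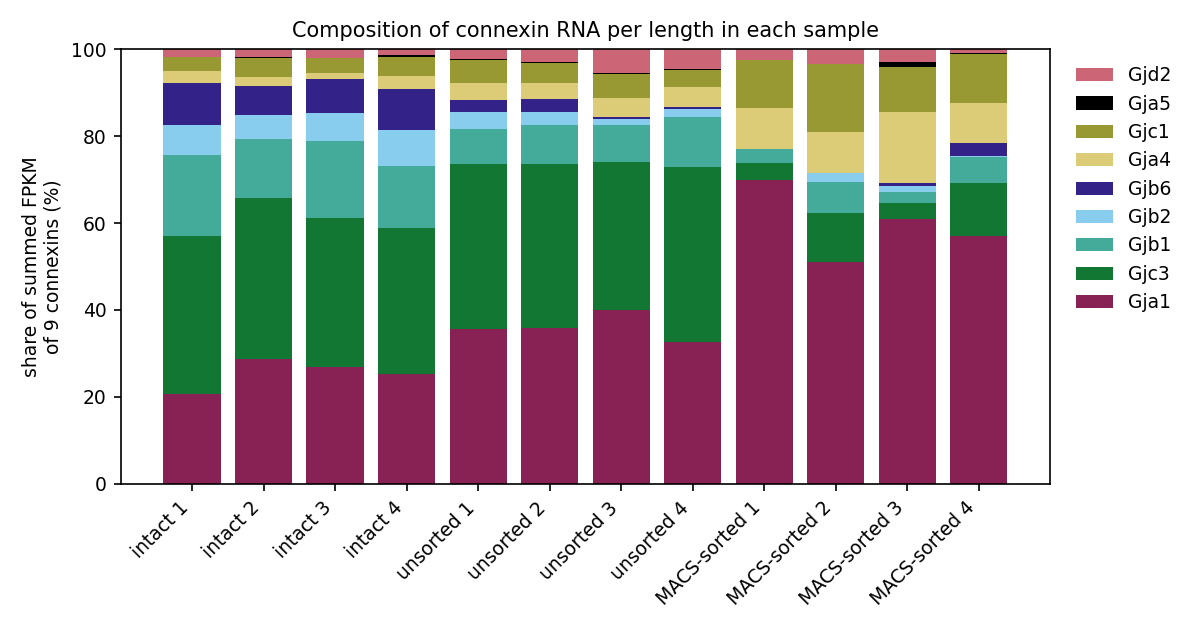
Share of each connexin in the summed FPKM of the 9 genes (vertical axis, percent), with a stacked bar for each of the 12 samples. The share of Gja1 is 51.1% to 69.98% after MACS sorting and 20.5% to 39.9% in the 8 remaining samples, where Gjc3 takes 33.6% to 40.2%.

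The order of levels per length also differed between groups. In intact ganglia it ran from Gjc3 through Gja1, Gjb1, Gjb6, Gjb2, Gjc1, Gja4 and Gjd2 to Gja5, and the sample ranges of neighbours overlapped only for Gjb6 with Gjb2 and for Gja4 with Gjd2. In unsorted cells the order was Gjc3, Gja1, Gjb1, Gjc1, Gja4, Gjd2, Gjb2, Gjb6 and Gja5. There Gjc3 was above Gja1 in 3 of 4 samples with overlapping ranges, and each neighbouring pair from Gjc1 to Gjb6 overlapped too. In MACS-sorted cells it was Gja1, Gjc1, Gja4, Gjc3, Gjb1, Gjd2, Gjb6, Gjb2 and Gja5, with every neighbouring pair overlapping in range, although Gja1 was above Gjc1 in 4 of 4 samples.

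**Figure D2:**
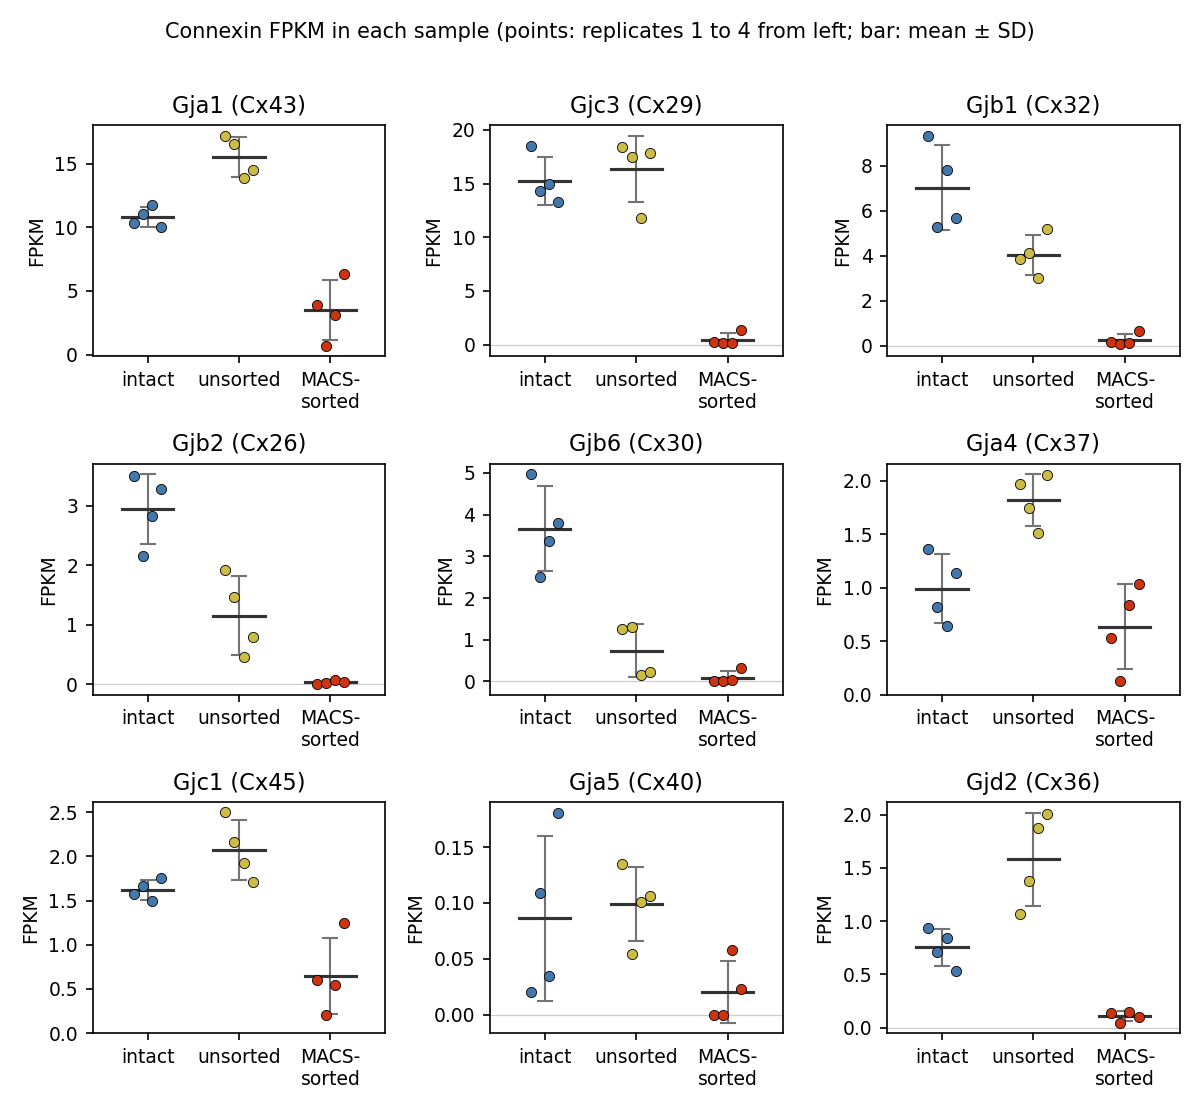
FPKM of each connexin (vertical axis, own scale per panel) by group, with points for replicates 1 to 4 from left to right and bars for the mean and SD. Gja1, Gjc3, Gjb1, Gjb2, Gja4, Gjc1 and Gjd2 are lower in all 4 MACS-sorted samples than in all 4 unsorted samples, whereas Gjb6 and Gja5 overlap between those groups. Over the 17657 genes of the fit without a filter, 25.0% are lower in this way.

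The comparison of MACS-sorted with unsorted cells asks how the sorted preparation differed from a dissociated ganglion. It covers the whole sorting step and not only the loss of antibody-labelled cells. Markers of large-diameter neurons (5 of 5 tested) were lower and red blood cell genes (6 of 6 tested) higher, and the paper describes enrichment by cell size. Which part of the step lies behind a connexin difference was not tested. Differences are of mean log2(FPKM + 0.1), a scale that understates folds of genes at low levels, and were tested with limma, a linear model that shares variance information across genes. Genes whose mean over the 8 samples compared reached 1 FPKM were tested, p-values were adjusted by the Benjamini-Hochberg method over all of them, and an adjusted p under 0.05 is read as a difference. A gene is said to meet all 3 criteria when the log2 ratio of its group means is also beyond 0.5 and its higher group mean above 5 FPKM. Of 12038 genes tested 18.8% were higher and 27.7% lower in MACS-sorted cells, and 12.5% were lower by all 3 criteria. The balance of directions over all genes depended on the scaling, with 3953 of 6710 differing genes higher after quantile normalization and 2863 of 5820 after median-ratio scaling. Of the 9 connexins 5 passed the filter, and these 5 (Gja1, Gja4, Gjb1, Gjc1 and Gjc3) were lower, Gja1 and Gjc3 by all 3 criteria. Of the 5, Gja4, Gjb1, Gjc1 and Gjc3 had MACS-sorted means under 1 FPKM and passed only through the unsorted group, so their common direction was partly set by the filter. The same holds for tested genes of the marker lists with MACS-sorted means under 1 FPKM. Gja5, Gjb2, Gjb6 and Gjd2 were under the filter. In these bulk samples, fewer cells of a type and less RNA per cell cannot be told apart.

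Gja1, which encodes Cx43, the main channel of satellite glial coupling and also a connexin of endothelium and smooth muscle, was at 17.2, 16.6, 13.9 and 14.5 FPKM in unsorted replicates 1 to 4, against 3.86, 0.686, 3.14 and 6.33 FPKM after MACS sorting. Every MACS-sorted sample was below every unsorted sample, with replicate 2 lowest and replicate 4 highest. The difference was -2.46 (SE 0.526, limma adjusted p = 0.0038).

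Gjc3, which encodes Cx29, a connexin known from Schwann cells, was at 18.4, 17.4, 11.8 and 17.8 FPKM in unsorted but 0.217, 0.150, 0.188 and 1.36 FPKM in MACS-sorted replicates. Unsorted replicate 3 was low in its group and MACS-sorted replicate 4 high, and the groups lay far apart. Its difference of -5.25 (SE 0.499, limma adjusted p = 2.8e-05) was the largest of the 5 connexins tested. Gjb1, which encodes Cx32 of noncompact myelin, went from 3.87, 4.12, 3.01 and 5.18 FPKM in unsorted to 0.166, 0.0959, 0.132 and 0.672 FPKM in MACS-sorted replicates. MACS-sorted replicate 4 was again the highest of its group, and the groups did not overlap. The difference was -3.71 (SE 0.419, limma adjusted p = 8e-05), or -2.0 with a pseudocount of 1.

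The mean of Gja1 after sorting was thus a larger fraction of its unsorted mean than that of Gjc3 or Gjb1, and each was set against glial markers. For each sample the mean log2(FPKM + 0.1) of a marker list was subtracted from that of the connexin, and groups were compared by two-sided exact permutation tests, for which the smallest p of 4 samples against 4 is 0.0286, with Benjamini-Hochberg adjustment over the 12 tests made. Relative to satellite glia Gja1 was at -2.18, -2.24, -2.20 and -2.23 in unsorted replicates and at 1.55, -0.43, 0.75 and 0.51 in MACS-sorted replicates. All 4 MACS-sorted values were above all unsorted values, which were almost equal, and the difference was 2.81 (exact p = 0.0286, adjusted p = 0.0571). Relative to Schwann cells Gja1 was 1.14 higher, also in 4 of 4 samples above all unsorted ones (exact p = 0.0286, adjusted p = 0.0571).

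Relative to the satellite glia list Gjc3 differed by 0.01 (exact p = 1, adjusted p = 1), with group ranges that overlapped. That value depends on Glul, singled out after the values were seen, as do those of Gja1 and Gjb1 relative to this list. The log2 difference of Glul was -0.58, while those of the other list genes were -7.02 to -5.19, mostly below the -5.25 of Gjc3. The Gjc3 value was 0.40 with a pseudocount of 1 (adjusted p = 0.0762, over the alternatives 0.0762 to 1) and 0.29 with quantile normalization, and -0.15 without MACS-sorted replicate 4. Relative to the Schwann cell list Gjc3 was at -1.65 (exact p = 0.0286, adjusted p = 0.0571), with all 4 MACS-sorted samples lower. Gjb1 was 1.55 higher relative to satellite glia, in 4 of 4 samples (exact p = 0.0286, adjusted p = 0.0571), and -0.11 from the Schwann cell list (exact p = 0.686, adjusted p = 0.748), a value that turned to 1.07 with a pseudocount of 1 and to 0.30 with quantile normalization. The values of Gja1, Gjc3 and Gjb1 relative to the Schwann cell list all depend on Pmp22 and Mbp, also singled out after the values were seen. The log2 differences of Pmp22 and Mbp were -0.92 and -1.19, while those of the other list genes were -5.43 to -2.91. That range holds both Gjc3 and Gjb1 (-3.71), and Gja1 (-2.46) lies above it. None of the 12 tests passed 0.05 after adjustment by the exact permutation test, and 6 of them were at the smallest unadjusted p that this design allows. With a pseudocount of 1 the Gjc3 value relative to Schwann cells shrank to -0.54.

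The marker lists moved in the same comparison. Of the satellite glia list 6 of 6 genes were lower (median difference -6.07), and of the Schwann cell list 7 of 8 (median -4.26), the exception being Mbp, against a median of -0.04 over all 12038 genes. Fabp7, a satellite glia marker, was at 203 to 310 FPKM in unsorted cells but 1.79, 1.21, 2.35 and 10.8 FPKM in MACS-sorted replicates, and MACS-sorted replicate 4 was high for it as for Gjc3 and Gjb1. The part of these markers in the connexin results was not tested.

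Gja4 and Gjc1 form vascular gap junctions, Gja4 (Cx37) in endothelium and Gjc1 (Cx45) mainly in smooth muscle and pericytes. Gja4 was at 1.97, 1.74, 1.51 and 2.05 FPKM in unsorted but 0.532, 0.126, 0.842 and 1.04 FPKM in MACS-sorted replicates. Gjc1 was at 2.50, 2.16, 1.93 and 1.71 FPKM in unsorted but 0.607, 0.210, 0.540 and 1.24 FPKM in MACS-sorted replicates. For both genes the groups did not overlap, MACS-sorted replicate 2 was lowest and replicate 4 highest, as for Gja1. The differences were -1.61 for Gja4 (SE 0.461, limma adjusted p = 0.017) and -1.71 for Gjc1 (SE 0.397, limma adjusted p = 0.006), shrinking to -0.97 and -1.05 with quantile normalization and to -0.82 and -0.93 with a pseudocount of 1, all with an adjusted p still under 0.05.

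Vascular markers split in this comparison. Of 8 endothelial genes (most abundant Cldn5, none at 0 in any sample) 0 of 8 differed in limma, 0 of 8 also at an unadjusted p under 0.05, with a median of -0.49. Their summed FPKM was 69.8, 69.0, 54.5 and 60.2 in unsorted and 66.0, 16.5, 56.9 and 91.0 in MACS-sorted replicates, lowest in replicate 2 and highest in replicate 4 like Gja1, Gja4 and Gjc1. Of the 4 arterial genes 3 were tested and 2 were lower, and they summed to 22.4 to 24.9 FPKM in unsorted and to 12.8, 12.6, 16.5 and 17.4 FPKM in MACS-sorted replicates. Of 8 pericyte and smooth muscle genes 6 were tested, of which 5 were lower and Rgs5 higher. Of the 5, Acta2, Myh11, Notch3 and Tagln passed the filter only through the unsorted group, so their direction was partly set by it. Rgs5, the most abundant, made up most of that list's 55.9, 90.7, 80.4 and 125 FPKM in MACS-sorted replicates, where 2, 4, 2 and 1 of its genes were at 0. In unsorted replicates the list summed to 90.8, 88.1, 68.6 and 70.7 FPKM, and in intact replicates to 87.0, 90.9, 84.8 and 94.1 FPKM. The part of vascular markers in the levels of Gja1, Gja4 and Gjc1 was not tested.

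The remaining 4 connexins were near or at the detection limit after sorting. In these samples 1 fragment corresponded to 0.0258 to 0.0326 FPKM of Gjb2 and to 0.0297 to 0.0376 FPKM of Gjb6. Among 7 connexins 27 of 28 values estimated at 10 fragments or fewer lay within 0.1 of a whole number. The 28 include values at 0, which are whole at any depth. Gjb1 and Gjc1 were left out, having no single transcript length to use. Gjb2 (Cx26), known from fibroblasts of the leptomeninges and from epithelia, was at 1.92, 1.46, 0.456 and 0.787 FPKM in unsorted but 0, 0.0282, 0.0772 and 0.0304 FPKM in MACS-sorted replicates, about 0, 1, 3 and 1 fragments. The groups did not overlap (two-sided exact permutation p = 0.0286). Gjb6 (Cx30), also a meningeal and astrocytic connexin, was at 1.27, 1.31, 0.155 and 0.228 FPKM in unsorted but 0, 0, 0.0298 and 0.316 FPKM in MACS-sorted replicates. MACS-sorted replicate 4, at about 9 fragments, was above unsorted replicates 3 and 4, at about 5 and 7 fragments, so the groups overlapped (exact permutation p = 0.0857). In the same comparison 5 of 6 fibroblast genes were lower (median -5.92), as were 3 of the 4 meningeal and perineurial genes tested (median -3.36). Of these Lum, Cldn1, Itgb4 and Slc47a1 had MACS-sorted means under 1 FPKM and passed only through the unsorted group, so their direction was partly set by the filter. The part of these lists in the levels of Gjb2 and Gjb6 was not tested.

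Gjd2 encodes Cx36, the main connexin of electrical synapses between neurons. It was at 1.07, 1.38, 1.87 and 2.01 FPKM in unsorted but 0.134, 0.0465, 0.148 and 0.100 FPKM in MACS-sorted replicates, the latter about 5, 2, 7 and 4 fragments. No samples overlapped (exact permutation p = 0.0286), and the neuronal connexin was thus low in the samples with the fewest glial transcripts. Pan-neuronal markers went both ways: 2 of 7 were higher (Avil 0.61 and Elavl4 0.36) and 2 lower (Snap25 -0.94 and Tubb3 -0.38), with a median of 0.18. Of 7 markers of small-diameter nociceptors 6 were higher (median 0.79), and of 5 markers of large-diameter neurons, led by Nefh, 5 were lower (median -2.62). The large-diameter list summed to 741, 726, 903 and 830 FPKM in unsorted and to 143, 78.1, 117 and 103 FPKM in MACS-sorted replicates, and its part in the level of Gjd2 was not tested. Gja5 (Cx40), a connexin of arterial endothelium and cardiac conduction tissue, stayed at or under 0.181 FPKM in all 12 samples, with at most about 10 fragments, and its groups overlapped in every comparison.

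In a fit without the filter on low levels all 9 connexins were lower in MACS-sorted cells, as were 24.7% of the 17657 genes in that fit. For the 4 genes under the filter the differences were -3.09 for Gjb2, -2.06 for Gjb6, -3.01 for Gjd2 and -0.74 for Gja5 (limma adjusted p = 0.00033, 0.042, 4.6e-05 and 0.023). The exact permutation p of Gjb6 (0.0857) and Gja5 (0.0571) was above 0.05, and the fitted values of genes this low depend on the pseudocount.

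**Figure D3:**
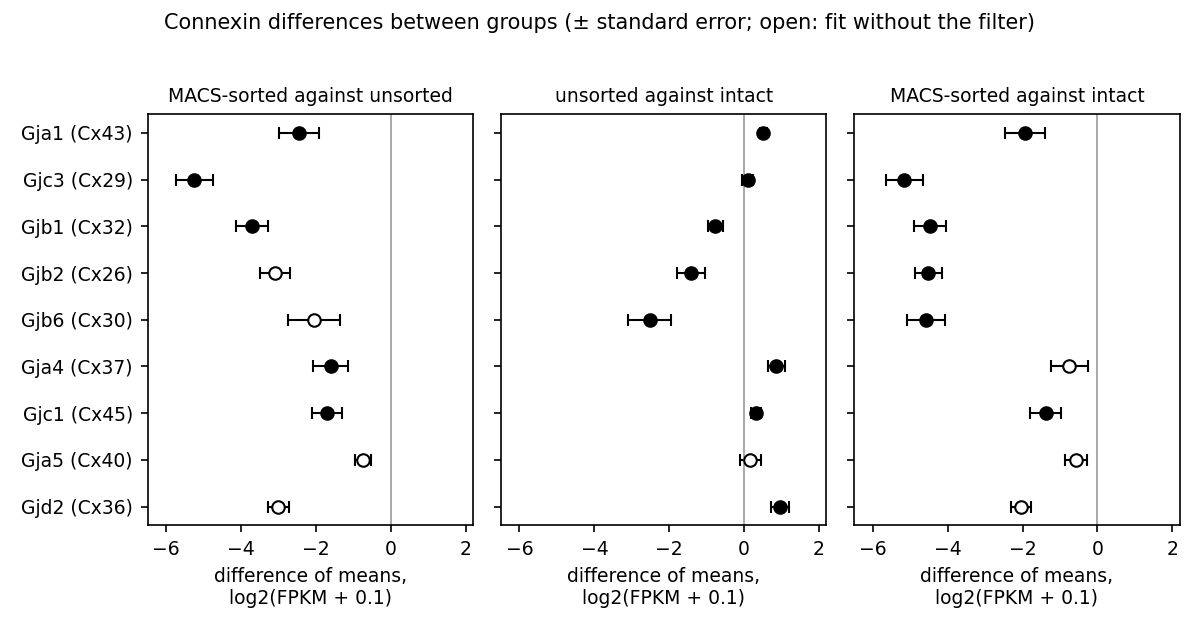
How far each connexin lies from the second group in the 3 comparisons, which share samples (horizontal axis, mean log2(FPKM + 0.1) of the first group minus that of the second, with standard error). Filled points passed the filter and open points come from the fit without it. Between unsorted and intact samples 6 of 9 lie to the right of 0 (Gja1, Gja4 and Gjd2, which passed the test, and Gjc1, Gjc3 and Gja5, which did not) and Gjb1, Gjb2 and Gjb6 to the left. After sorting all 9 lie to the left.

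The comparison of unsorted with intact samples asks what dissociation did to ganglionic transcripts before any sorting. Of 12392 genes tested 14.8% were higher and 7.79% lower in unsorted cells, and by all 3 criteria 4.29% were higher and 2.76% lower. All 4 unsorted samples were above all 4 intact samples for 2577 of the 12392 genes, and below them for 1487. Of the 9 connexins 8 passed the filter and 6 differed: Gja1, Gja4 and Gjd2 were higher, and Gjb1, Gjb2 and Gjb6 lower. By all 3 criteria Gja1 was higher and Gjb1 lower. For Gja1 the log2 ratio of group means, 0.52, was only just beyond 0.5, and its fitted difference was 0.47 without unsorted replicate 1. Gja4 and Gjd2 passed the filter only through the unsorted group and Gjb6 only through the intact group, so their directions were partly set by the filter. The same holds for tested genes of the marker lists with a mean under 1 FPKM in either group.

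Gja1 was at 10.4, 11.1, 11.8 and 10.0 FPKM in intact replicates 1 to 4, and every unsorted sample was above all of them. It rose by 0.52 (SE 0.0917, limma adjusted p = 0.0071). Gjc3 was at 18.5, 14.3, 14.98 and 13.3 FPKM in intact replicates, a range that overlapped that of unsorted cells, and its difference of 0.09 (SE 0.157) did not pass the test (limma adjusted p = 0.7). Gjb1 was at 9.32, 5.26, 7.79 and 5.69 FPKM in intact replicates, all above the unsorted samples, with intact replicate 2 only slightly above unsorted replicate 4 at 5.18 FPKM. It differed by -0.77 (SE 0.21, limma adjusted p = 0.031).

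Beside glial markers the Gja1 difference was close to the mean of the satellite glia list, whose genes ranged from -0.12 (Fabp7) to 1.06 (Kcnj10). Of 6 satellite glia genes 3 were higher and 0 lower (median 0.35, against 0.01 over all genes), and Gja1 differed from the list by 0.10 (exact p = 0.343, adjusted p = 0.411). Of 8 Schwann cell genes 0 differed in limma, and 3 at an unadjusted p under 0.05, with a median of -0.29. Gjb1 differed by -0.65 from that list, with unsorted replicates at -4.69, -4.59, -4.82 and -4.70 and intact replicates at -3.94, -4.29, -3.98 and -4.00. The 2 groups did not overlap (exact p = 0.0286, adjusted p = 0.0571), and relative to satellite glia Gjb1 was at -1.18 with the same p-values. Gjc3 differed by 0.21 from Schwann cells and by -0.33 from satellite glia, and Gja1 by 0.64 from Schwann cells (exact p = 0.2, 0.0571 and 0.0571, adjusted p = 0.267, 0.0857 and 0.0857). Gjb1 gave 16.1% of summed connexin FPKM in intact and 9.31% in unsorted samples, and Gjc3 35.4% and 37.5%, a contrast that was not tested.

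The neighbouring genes Gjb2 and Gjb6 had the most negative differences of the 8 connexins tested. Gjb2 was at 3.49, 2.16, 2.82 and 3.28 FPKM in intact replicates and Gjb6 at 4.97, 2.51, 3.36 and 3.79 FPKM. All intact values were above all unsorted values, and among the latter replicates 3 and 4 were below replicates 1 and 2 for both genes. The differences were -1.42 for Gjb2 (SE 0.374, limma adjusted p = 0.027) and -2.53 for Gjb6 (SE 0.573, limma adjusted p = 0.017), or -0.91 and -1.47 with a pseudocount of 1.

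Connective tissue markers were lower in the same samples. Of 6 fibroblast genes 6 were lower (median -1.10), and of 6 meningeal and perineurial genes 4 were lower and 1, Slc2a1, higher (median -1.66). The fibroblast list (most abundant Dcn) summed to 942, 539, 588 and 496 FPKM in intact and to 337, 328, 168 and 223 FPKM in unsorted replicates, again lower in replicates 3 and 4. The meningeal list, in which Slc2a1 was the most abundant gene, summed to 57.7, 43.7, 48.0 and 48.7 FPKM in intact and to 40.5, 39.7, 31.3 and 34.6 FPKM in unsorted replicates. Its transporter gene Slc47a1 went from 13.1, 6.55, 7.57 and 8.86 FPKM to 4.21, 3.44, 0.777 and 1.12 FPKM. No gene of either list was at 0 in these samples, and their part in the levels of Gjb2 and Gjb6 was not tested.

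Gja4 and Gjd2 were low in intact ganglia, at 1.36, 0.819, 0.640 and 1.14 FPKM and at 0.936, 0.712, 0.843 and 0.533 FPKM. Every unsorted sample was above every intact sample for both genes. They rose by 0.86 (SE 0.227, limma adjusted p = 0.028) and by 0.96 (SE 0.244, limma adjusted p = 0.024), or by 0.51 and 0.55 with a pseudocount of 1. Gjc1 was at 1.58, 1.67, 1.49 and 1.75 FPKM in intact replicates and overlapped the unsorted range through unsorted replicate 4. Its difference of 0.32 (SE 0.138) did not pass the test (limma adjusted p = 0.12), except with quantile normalization (0.53, adjusted p = 0.033, with a range of 0.033 to 0.55 over its alternatives). Gja5 was under the filter, at 0.0204, 0.109, 0.0344 and 0.181 FPKM in intact and 0.135, 0.0541, 0.101 and 0.106 FPKM in unsorted replicates (exact permutation p = 0.771).

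Beside Gja4, and beside Gja1 as a connexin also of endothelium, 8 of 8 endothelial genes were higher in unsorted cells (median 1.12), and they summed to 29.8, 27.3, 31.6 and 31.5 FPKM in intact replicates, below all unsorted samples. Of the arterial genes 3 of 3 tested were higher (median 0.37), in sum 17.6 to 19.5 FPKM in intact samples, and of 6 pericyte and smooth muscle genes tested 3 were higher and 1 lower (median 0.38). Beside Gjd2, 4 of 7 pan-neuronal genes (median 0.31) and 4 of 5 large-diameter genes (median 0.77) were higher, and the large-diameter list summed to 688, 494, 536 and 482 FPKM in intact replicates. Of the small-diameter nociceptor genes 1 of 7 was higher. The part of these lists in the rise of Gja1, Gja4 and Gjd2 was not tested.

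With 1 sample left out Gja1 and Gjb6 reached adjusted p-values of at most 0.025 and 0.047, but the adjusted p was above 0.05 for Gja4 without intact replicate 2 or 3 or unsorted replicate 1, 2 or 4 (0.063, 0.053, 0.074, 0.063 and 0.078), for Gjb1 without intact replicate 3 or unsorted replicate 1, 2 or 3 (0.071, 0.074, 0.067 and 0.08), for Gjb2 without intact replicate 3 or 4 or unsorted replicate 4 (0.054, 0.068 and 0.074), and for Gjd2 without intact replicate 2 or 4 or unsorted replicate 2, 3 or 4 (0.052, 0.059, 0.051, 0.069 and 0.072). With unsorted replicates 1 and 2 averaged Gja4 and Gjb1 were at 0.066 and 0.069, with a replicate block Gjb1 and Gjd2 were at 0.058 and 0.057, and in a fit of all 12 samples together Gja1, Gja4, Gjb1 and Gjd2 were at 0.48, 0.19, 0.18 and 0.053, so that over the alternatives that leave out no sample the adjusted p ranged from 0.0064 to 0.48, 0.012 to 0.19, 0.026 to 0.18 and 0.016 to 0.057 for these 4 genes.

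The comparison of MACS-sorted with intact samples spans dissociation and sorting, and it shares samples with both others. Of 12234 genes tested 14.1% were higher and 20.6% lower in MACS-sorted cells, and 10.7% were lower by all 3 criteria. All 4 MACS-sorted samples were below all 4 intact samples for 21.9% of these genes, and for 22.0% of 17980 genes without the filter. Of the 9 connexins 6 passed the filter and these 6 were lower, with Gja1, Gjb1 and Gjc3 lower by all 3 criteria. All but Gja1 had MACS-sorted means under 1 FPKM and passed only through the intact group, so their common direction was partly set by the filter. So were the directions of tested marker list genes with MACS-sorted means under 1 FPKM. In the fit without the filter 7 of 9 connexins were lower, against 20.7% of 17980 genes, and Gja4 and Gja5 did not pass (limma adjusted p = 0.3 and 0.18). Gjc3 differed by -5.16 (SE 0.495), Gjb6 by -4.58 (SE 0.504), Gjb2 by -4.51 (SE 0.363) and Gjb1 by -4.48 (SE 0.423), with limma adjusted p = 5.5e-05, 0.00012, 2.2e-05 and 5e-05. With a pseudocount of 1 the values of these 4 genes were -3.52, -2.08, -1.92 and -2.65, so their sizes depend on the amount added, most for Gjb2 and Gjb6, which were at 0 in some MACS-sorted samples.

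Gja1 differed least of the strongly expressed connexins, by -1.94 (SE 0.527, limma adjusted p = 0.018), with all 4 MACS-sorted samples below all intact samples. Gjc1 differed by -1.39 (SE 0.407, limma adjusted p = 0.025), and by -0.70 with a pseudocount of 1. Its call was lost with quantile normalization (-0.52, adjusted p = 0.2, with a range of 0.0057 to 0.2 over its alternatives) and without intact replicate 2, 3 or 4 or MACS-sorted replicate 3 (0.063, 0.055, 0.067 and 0.058). Gja4, Gja5 and Gjd2 were under the filter. Gja4 overlapped between the groups (exact permutation p = 0.229), as did Gja5 (exact permutation p = 0.2). Gjd2 was lower in all 4 MACS-sorted samples than in all 4 intact samples (exact permutation p = 0.0286).

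In this comparison 5 of 6 satellite glia genes and 8 of 8 Schwann cell genes were lower (medians -5.57 and -4.07, against -0.04 over all genes), as were 6 of 6 fibroblast genes and 5 of 6 meningeal and perineurial genes (medians -6.77 and -4.59). The fibroblast list summed to 7.62, 8.01, 13.9 and 32.4 FPKM in MACS-sorted replicates. Of the meningeal list's 26.0, 19.8, 25.7 and 39.1 FPKM there, 25.2, 19.2, 25.1 and 36.3 FPKM were Slc2a1, while Aldh1a2 was at 0 in replicates 1 to 3. Of the endothelial genes 0 of 8 differed in limma, 1 at an unadjusted p under 0.05 (median 0.53). Of the 4 pericyte and smooth muscle genes tested 3 were lower (median -2.31), beside Gjc1, and of the 4 large-diameter neuron genes tested 3 were lower (median -1.53), beside Gjd2. The part of these lists in the connexin differences was not tested.

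Connexins and marker genes were also compared by their course over the samples. For each connexin whose mean over all samples reached 1 FPKM, the 5 genes with the highest Pearson r of log2(FPKM + 0.1) were taken among 8248 genes whose mean reached 5 FPKM. The n of 12 samples is 3 groups of 4, so r mostly reflects group means, and a second value, r of the deviations from group means, is given beside it as a description. This second value can rest largely on an outlying sample.

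Gja1 was closest to Mpzl1 (r = 0.996, within groups 0.985), Itih5 (0.990, 0.984), Sema3g (0.986, 0.960), Col4a2 (0.985, 0.972) and Tjp1 (0.982, 0.939), the last encoding the scaffold protein ZO-1 that binds Cx43. Mpzl1 was lowest in MACS-sorted replicate 2 and highest of its group in replicate 4, like Gja1. Gjc1 had Mpzl1 (0.986, 0.949) and Gja1 itself (0.983, 0.938) as its nearest genes, followed by Nfib (0.979, 0.926), Iqgap1 (0.977, 0.953) and Cxcr4 (0.975, 0.919). Gja4 was less close to any gene, with Cxcr4 (0.910, 0.904), 9430020K01Rik (0.909, 0.914), Itih5 (0.906, 0.838), Mpzl1 (0.904, 0.885) and Zfp36l1 (0.900, 0.859). Gja1, Gja4 and Gjc1 thus shared 1 of their 5 nearest genes, Mpzl1.

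The nearest genes of Gjc3 were Fabp7 (r = 0.997, within groups 0.962), 5930403L14Rik (0.997, 0.960), Postn (0.996, 0.936), Sfrp5 (0.996, 0.950) and Sox10 (0.996, 0.944), the last encoding a transcription factor of the glial lineage. Those of Gjb1 were Drp2 (0.996, 0.977), Ncmap (0.995, 0.962), Prx (0.994, 0.983), Cryab (0.993, 0.943) and Limch1 (0.991, 0.915), of which Drp2, Ncmap and Prx encode proteins of the myelinating Schwann cell. Drp2 and Prx are also in the Schwann cell list and Fabp7 in the satellite glia list. Gjc3 and Gjb1 followed each other at r = 0.982 (within groups 0.947). MACS-sorted replicate 4 stood above its group for Gjc3 (1.36 FPKM, others 0.150 to 0.217), Gjb1 (0.672, others 0.0959 to 0.166) and Fabp7 (10.8, others 1.21 to 2.35). That sample weighs heavily on these within-group values, and r without it was not computed.

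Gjb2 was nearest to Sfrp4 (r = 0.993, within groups 0.895), Dcn (0.986, 0.749), Vtn (0.983, 0.721), Lbp (0.981, 0.766) and H19 (0.980, 0.650). Gjb6 was nearest to Ptgds (0.992, 0.960), Mgp (0.982, 0.950), Col6a2 (0.980, 0.904), Fn1 (0.964, 0.935) and Cldn11 (0.960, 0.922). Ptgds, a prostaglandin D synthase abundant in meninges, was at 605, 368, 543 and 564 FPKM in intact and at 113, 116, 4.51 and 6.33 FPKM in unsorted replicates. Its unsorted replicates 3 and 4 lay far below replicates 1 and 2, as those of Gjb6 did. Gjb2 and Gjb6 followed each other at r = 0.928 (within groups 0.755), and Gjb2 with Gja1 at 0.726 (within groups 0.0696).

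The other connexin genes were near the detection limit. None of the 11 passed the filter in any comparison. Gjb5 was at 0.515, 0.352, 0.233 and 0.210 FPKM in intact replicates and was listed at 0 in the 4 MACS-sorted samples. Gje1 was listed at 0 in all 12 samples.

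Of the 3 pannexins 2 passed the filter in each comparison. Panx1 was at 27.1 to 33.1 FPKM in intact samples, 29.4 to 33.1 FPKM after dissociation and 27.2 to 39.9 FPKM after sorting, above every connexin in each sample, and no comparison passed the test (limma adjusted p = 0.27 on sorting, 0.32 on dissociation and 0.13 over both steps). Panx2 was at 11.96, 16.6, 17.0 and 17.2 FPKM in intact replicates, at 20.5, 20.6, 25.3 and 19.2 FPKM in unsorted ones and at 24.2, 24.02, 19.99 and 17.5 FPKM after sorting. It was higher in unsorted than in intact samples (difference 0.45, limma adjusted p = 0.042) and in MACS-sorted than in intact samples (0.45, limma adjusted p = 0.046), and did not differ on sorting (limma adjusted p = 0.98). Panx3 stayed at or under 0.155 FPKM.

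Genes for 16 proteins that bind, phosphorylate or turn over connexins were measured alongside, all 16 passing the filter. On sorting 2 were higher and 6 lower, with a median of -0.10, beside 18.8% higher and 27.7% lower of all genes tested. Tjp1 (-1.24, limma adjusted p = 0.0034), for the scaffold ZO-1, and Cdh2 (-0.86, limma adjusted p = 7e-05), for N-cadherin, were lower, as were Nedd4, Ubqln4 and Dbn1. The kinase gene Prkca, for a protein kinase C that phosphorylates Cx43, was higher (0.82, limma adjusted p = 0.0021), as was Src. Tjp1 was at 11.1, 10.9, 9.13 and 10.5 FPKM in unsorted but 4.21, 2.39, 5.31 and 6.62 FPKM in MACS-sorted replicates, lowest in replicate 2 like Gja1. On dissociation 4 of the 16 were higher (Cdh2, Nedd4, Ubqln4 and Csnk1d) and Nov lower, with a median of 0.15, beside 14.8% higher and 7.79% lower of all genes tested. Nothing particular to these 16 genes is read from the counts. Between MACS-sorted and intact samples 2 were higher and 2, Tjp1 among them, lower.

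The connexin genes are compact, and in the mm10 annotation the coding sequence of Gja1, Gja4, Gjb1, Gjb2, Gjb6 and Gjc1 lies in 1 exon, and that of Gjc3 and Gjd2 in 2. Gjb2 (chr14:57098602-57104702) and Gjb6 (chr14:57123301-57133611) are neighbours on the minus strand, and the other members are on other chromosomes: Gja1 at chr10:56377300-56390419, Gjc3 at chr5:137953809-137962959, Gjb1 at chrX:101377337-101385624, Gja4 at chr4:127311420-127314039, Gjc1 at chr11:102799478-102819686, Gjd2 at chr2:114009601-114013619 and Gja5 at chr3:97032402-97053634. Transcripts on the opposite strand overlap Gjd2 and Gja5.

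Promoters are shown for the connexins whose levels moved together or apart across the groups: the glial genes Gjc3 and Gjb1, which followed each other, the neighbours Gjb2 and Gjb6, and Gja1. RefSeq promoters (GRCm38.p6, the assembly of mm10) run from 250 bases before to 50 bases after a transcript start, and 8 of 9 members had entries, Gjc1 being the other. They were searched on both strands for ACAAAG, a core word bound by SOX proteins such as SOX10, and for GCGTGGG, a core word bound by EGR proteins such as EGR2. Capitals mark ACAAAG, which 6147 of 32851 promoters (18.7%) hold. It was found in 2 of the 4 Gjb1 windows, chrX:101376126-101376425 and chrX:101383482-101383781 on the plus strand, and in the window of Gja5, but in these letters not in the windows of Gjc3 (chr5:137963049-137963348, minus strand), Gja1 (chr10:56377050-56377349, plus strand), Gjb2 (chr14:57104653-57104952, minus strand) or Gjb6 (chr14:57133562-57133861, minus strand). GCGTGGG, held by 1655 promoters (5.04%), was in no window of the 8 members. Each sequence is written 5′ to 3′ along the gene's strand, and a match describes the letters and not a bound site.
Gjb1 window at chrX:101376126-101376425: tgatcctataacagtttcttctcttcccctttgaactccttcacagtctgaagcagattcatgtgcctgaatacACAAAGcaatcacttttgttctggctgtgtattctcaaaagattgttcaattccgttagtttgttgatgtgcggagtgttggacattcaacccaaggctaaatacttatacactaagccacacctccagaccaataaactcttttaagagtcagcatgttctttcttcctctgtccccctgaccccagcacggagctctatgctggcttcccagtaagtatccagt
Gjb1 window at chrX:101383482-101383781: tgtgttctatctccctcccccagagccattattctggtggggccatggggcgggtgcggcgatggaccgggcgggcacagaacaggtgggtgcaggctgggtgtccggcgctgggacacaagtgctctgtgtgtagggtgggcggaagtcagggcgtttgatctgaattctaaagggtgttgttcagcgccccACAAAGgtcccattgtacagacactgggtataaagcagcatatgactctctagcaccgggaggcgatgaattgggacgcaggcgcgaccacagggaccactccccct
Gjc3: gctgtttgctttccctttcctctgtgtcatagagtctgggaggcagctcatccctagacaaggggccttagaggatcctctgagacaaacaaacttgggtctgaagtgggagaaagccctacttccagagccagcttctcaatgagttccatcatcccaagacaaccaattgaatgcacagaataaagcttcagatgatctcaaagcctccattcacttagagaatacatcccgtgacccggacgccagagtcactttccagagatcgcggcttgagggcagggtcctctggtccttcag
Gjb2: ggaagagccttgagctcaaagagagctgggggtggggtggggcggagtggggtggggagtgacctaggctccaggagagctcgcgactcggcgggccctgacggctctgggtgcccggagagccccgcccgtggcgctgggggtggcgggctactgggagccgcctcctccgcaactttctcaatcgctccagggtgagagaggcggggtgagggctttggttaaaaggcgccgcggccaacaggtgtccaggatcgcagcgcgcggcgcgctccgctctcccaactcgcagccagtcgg
Gjb6: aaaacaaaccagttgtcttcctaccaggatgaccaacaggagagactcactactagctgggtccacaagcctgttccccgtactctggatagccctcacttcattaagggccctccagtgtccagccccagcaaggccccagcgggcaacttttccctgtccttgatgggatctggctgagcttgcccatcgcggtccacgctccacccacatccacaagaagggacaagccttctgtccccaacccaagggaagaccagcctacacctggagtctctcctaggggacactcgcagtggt
Gja1: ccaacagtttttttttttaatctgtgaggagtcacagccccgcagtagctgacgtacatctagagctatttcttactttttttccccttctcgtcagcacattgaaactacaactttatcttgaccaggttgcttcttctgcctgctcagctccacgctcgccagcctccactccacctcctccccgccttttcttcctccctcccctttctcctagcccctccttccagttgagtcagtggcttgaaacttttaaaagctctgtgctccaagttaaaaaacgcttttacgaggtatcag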

How the data were processed

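FPKM values of 24490 genes in 12 samples were used as deposited; per the submitters' processing notes the authors made them with TopHat2, SAMtools and Cufflinks 2.1.1 on mm10. The authors' CuffDiff test needs aligned reads, so limma 3.58.1 in R 4.3.3 replaced it, on log2(FPKM + 0.1) with an intensity trend, for genes whose mean over the 8 samples compared reached 1 FPKM. On data simulated for MACS-sorted against unsorted samples, the fit recovered 73 of 100 genes changed by 1 log2 unit and 90 of 100 changed by 2. Of 11619 unchanged genes there 8 differed. Real changes can thus be missed. Exact permutation tests used SciPy 1.17.1. Connexins, pannexins, binding partners and cell type markers formed 16 lists, and the members and lists were chosen with earlier results of these data known. Named genes are the members, the genes of these lists and, for each member whose mean reached 1 FPKM, the 5 genes with the highest Pearson r among those whose mean reached 5 FPKM. Blood lists were included: of 7 macrophage genes 3 were tested and lower on sorting, and 5 of 7 were lower on dissociation; of 6 red blood cell genes tested 6 were higher on sorting. Depth was estimated from the spacing of low FPKM values and covers counting precision only. Alternatives were pseudocounts of 0.01 and 1, no filter or a mean of at least 5 FPKM, median-ratio and quantile scaling, removal of the red blood cell list, no intensity trend, all 12 samples fitted together, a replicate block, averaged unsorted replicates 1 and 2, and leaving out each sample. Aligned reads were not used here, so isoforms are not reported. Values of some single genes of these lists are not reported here.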

Additional observations from a re-analysis of the deposited data

Results flagged for a closer look

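In 114 groups of 4 values (levels of the connexins and related genes, list sums and relative levels), 12 held a highest or lowest sample whose gap to its nearest neighbour, as a share of the group's range, passed Dixon's critical value for 4 samples, where chance gives about 1 in 20 groups. MACS-sorted replicate 4 stood above its group for Gjc3 (1.36 FPKM, others 0.150 to 0.217), Gjb1 (0.672, others 0.0959 to 0.166), Gjb6 (0.316, others 0 to 0.0298), Fabp7 (10.8, others 1.21 to 2.35) and the summed Schwann cell list (1215, others 520 to 595), and below it for the summed gap junction partners (1029, others 1279 to 1324). Intact replicate 1 stood above its group for Pvalb (441 FPKM, others 61.8 to 67.8), the summed macrophage list (64.0, others 30.0 to 32.7) and the summed other connexins (1.10, others 0.760 to 0.794), and below it for Panx2 (11.96, others 16.6 to 17.2). Unsorted replicate 3 was low for Gjc3 (11.8 FPKM, others 17.4 to 18.4). Unsorted replicate 4 was low for the log2 level of Gja1 relative to Schwann cells (-3.23, others -2.66 to -2.57).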

How the results depend on the processing

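Of 343 alternative log2 fold changes of single connexins, 312 kept their direction and side of the threshold, 30 lost the call, 1 gained it and 0 changed direction. The connexins that differed on sorting numbered 9 without the filter and 2 with a mean of at least 5 FPKM, where fewer genes are tested, and 5 to 5 when each sample was left out in turn. Between unsorted and intact samples they numbered 2 with a mean of at least 5 FPKM (fewer genes tested), 2 in the fit of all 12 samples, 4 with a replicate block and 3 to 6 with a sample left out. Against intact samples the MACS-sorted count was 2 with a mean of at least 5 FPKM (fewer genes tested) and 5 to 6 with a sample left out. The replicate block leaves 5171, 2287 and 3588 genes in the comparisons of MACS-sorted with unsorted, unsorted with intact and MACS-sorted with intact samples. Replicate numbers did not pair samples (correlations -0.14 to 0.07). Genes that differed between unsorted and intact samples (2793) numbered 1719 in the fit of all 12 samples, 1692 with unsorted replicates 1 and 2 averaged (fewer samples), and 1594 to 4390 with a sample left out, the highest without intact replicate 1. Over the leave-one-out fits 4720 to 6067 genes differed on sorting and 3311 to 4673 against intact samples, the latter 2707 with a mean of at least 5 FPKM. Of 168 relative levels 161 kept their sign and 7 did not. Gjb1 relative to Schwann cells on sorting was 1.07 with a pseudocount of 1, 0.30 with quantile normalization and -0.31 to 0.07 with a sample left out, and Gjc3 relative to satellite glia was -0.15 to 0.22 with a sample left out. Where no construction is named, the cause was not tested. Quantile normalization moved the median difference of all genes between MACS-sorted and intact samples from -0.04 to 0.12. Depth limits Gja5, and Gjb2, Gjb6 and Gjd2 after sorting, to about 10 fragments a sample or fewer.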
